A study of Rattus norvegicus with 4 samples.

Results

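Transcripts of the PPAR and RXR nuclear receptors and of their coregulators were examined in glomeruli from rats given Adriamycin (ADR, doxorubicin). The set was chosen by gene symbol and holds 9 genes: Pparg, Ppara and Ppard, Rxra, Rxrb and Rxrg, the corepressor gene Ncor1, and the coactivator genes Ppargc1a and Ppargc1b. Of these, 8 had values among the 13261 genes used. The ninth, Pparg, matched no row of the table used and was not analysed here, so each statement on PPAR subtypes compares Ppara with Ppard alone.

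The 4 samples form a single group of male Wistar rats weighing about 150 to 175 g. They were injected intravenously with ADR, an anthracycline that injures podocytes and produces a nephrotic syndrome in rodents. Rats of the same wider study that received puromycin aminonucleoside with pioglitazone, GQ-16 or vehicle were not analysed here, and no untreated group enters the comparisons. The labels name harvest at day 11 or day 21 without tying either day to these animals, and give neither the ADR dose nor the age. Glomeruli were isolated by sieving, which can also retain tubule fragments. Polyadenylated RNA with an integrity number above 7 was sequenced as stranded paired-end libraries. Whether each sample is 1 rat or a pool is not stated in the labels; each is called an animal below, and the spread and the p-values refer to these 4 samples.

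Peroxisome proliferator-activated receptors (PPARs) are transcription factors that bind fatty acids and their derivatives. They act on DNA as heterodimers with a retinoid X receptor (RXR), at a direct repeat of the AGGTCA motif spaced by 1 base. PPARα, encoded by Ppara, drives fatty acid oxidation in liver and proximal tubule; PPARδ, encoded by Ppard, is expressed in most tissues; PPARγ, encoded by Pparg, is the target of glitazone drugs. NCoR1 holds unliganded receptors in a silent state with histone deacetylase 3. PGC-1α and PGC-1β, encoded by Ppargc1a and Ppargc1b, are coactivators that promote mitochondrial and lipid-oxidation genes.

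The genes also differ in the sequence before their start. RefSeq promoter windows of GRCr8, from 250 bases before to 50 bases after the annotated start, matched 7 of the 8 genes with values (Ppard was not matched). CpG dinucleotides numbered from 4, in Ppargc1a, to 62, in Rxra, against a median of 7 over 33469 windows. The Rxra window held more CpG than 99.98% of all windows, and Ppargc1a more than 30.7% of them; Ppara, Ncor1, Rxrb, Rxrg and Ppargc1b lay between, at 32, 34, 41, 21 and 38. The motif AGGTCANAGGTCA, searched on both strands, was found in 0 of the 7 windows and in 0.0538% of all windows. Its single site AGGTCA, which the longer motif contains, was found in 0 of the 7 and in 16.2% of all windows. These letters describe the windows alone. The 150 bases before the start are shown for the windows with the most and the fewest CpG, with each CpG in capitals. They lie on the plus strand of GRCr8 at chr3:31387742-31387891 for Rxra and at chr14:63634158-63634307 for Ppargc1a.
Rxra: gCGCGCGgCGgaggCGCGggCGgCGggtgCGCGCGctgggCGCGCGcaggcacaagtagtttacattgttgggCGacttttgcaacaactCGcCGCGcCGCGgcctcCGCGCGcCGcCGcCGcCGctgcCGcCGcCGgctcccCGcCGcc
Ppargc1a: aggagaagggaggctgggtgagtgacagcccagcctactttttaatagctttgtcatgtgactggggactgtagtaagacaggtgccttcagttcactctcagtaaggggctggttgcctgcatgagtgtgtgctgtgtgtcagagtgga

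The libraries held 13566962, 16207027, 15348629 and 15244063 reads in the genes used, in replicates 1 to 4. No gene of the set had fewer than 50 reads in any animal, so all 8 were well above the floor of 3 reads. The labelled tissue was checked against its markers. All 11 podocyte genes had values, with a list mean of 8.20 ± 0.50 log2 CPM (counts scaled to the same total per library; SD, n = 4), and the lowest of them, Magi2, stood at 4.57. All 13 proximal tubule genes had values too, with a list mean of 8.50 ± 0.45, from Slc34a1 at 10.58 to Slc5a12 at 6.65. Transcripts of both compartments were thus present in every library. In such bulk samples, fewer cells of a type and less RNA per cell cannot be told apart.

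Ppard carried most of the PPAR reads analysed. Its level was 59.7, 43.2, 52.1 and 60.7 CPM in replicates 1 to 4, a mean of 53.9 ± 8.14 CPM (SD, n = 4). Replicate 2 was the low animal, and replicates 1 and 4 were within 2 CPM of each other. Ppara stood at 8.40, 6.17, 4.76 and 3.28 CPM, a mean of 5.65 ± 2.18 CPM. Replicate 1 was the highest and replicate 4 the lowest, and the values of the 2 genes did not overlap. Ppara therefore had the widest relative spread of the set, with an SD of 0.57 on the log2 scale against 0.23 for Ppard.

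Within each animal, Ppard had more reads than Ppara by a factor of 7.11 in replicate 1 (95% exact interval 5.83 to 8.72), 7 in replicate 2 (5.67 to 8.72), 10.9 in replicate 3 (8.61 to 14.1) and 18.5 in replicate 4 (13.9 to 25.1). Replicate 4 stood above replicates 1 and 2, with intervals that did not overlap theirs. As a share, Ppara gave 12.3% of the reads of the pair in replicate 1 (95% Wilson interval 10.4% to 14.6%) and 5.12% in replicate 4 (3.91% to 6.69%). Intervals of this kind cover counting error alone, and the libraries carried no molecular identifiers that would separate reads from molecules. Reads grow with transcript length, and no transcript lengths were used here. The order of the 2 genes per transcript would be the opposite only if Ppard transcripts were over 7 times as long as those of Ppara. A change of the ratio from animal to animal is free of length.

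**Figure D1:**
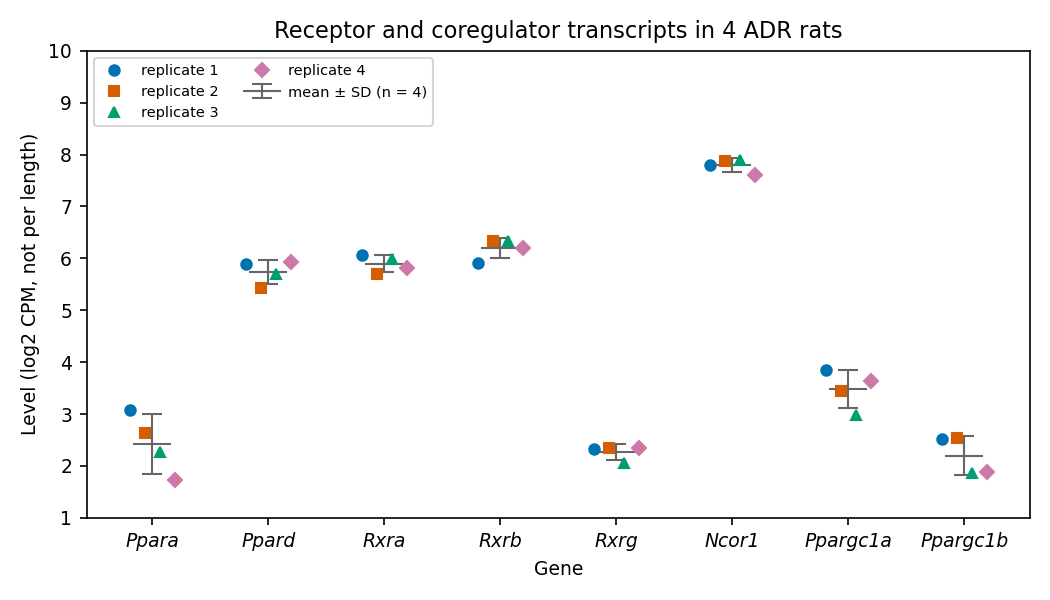
Levels of the 8 genes (y axis, log2 CPM, not corrected for transcript length) in each of the 4 ADR animals, with a symbol per replicate and the mean ± SD in grey. Ncor1 lies highest and closely grouped at 7.79 ± 0.13, and Ppara is the most spread, from 3.08 in replicate 1 to 1.73 in replicate 4.

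Among the RXR genes, the obligate partners of the PPARs, Rxrb and Rxra each had over 10 times as many reads as Rxrg in every animal. Rxrb stood at 60.4, 80.9, 80.5 and 73.4 CPM in replicates 1 to 4, with replicate 1 below the other 3. Rxra stood at 67.3, 52.1, 63.3 and 56.3 CPM, with replicate 1 the highest and replicate 2 the lowest. Their ranges overlapped, and the means were 73.8 ± 9.58 and 59.8 ± 6.82 CPM (SD, n = 4). Rxrg, the isotype best known from muscle and brain, was at 5.01, 5.06, 4.10 and 5.05 CPM. Replicate 3 was the low animal for Rxrg, by less than counting error, as its test below shows.

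Which of the RXR genes had the most reads depended on the animal. In replicate 1, Rxra gave 50.7% of RXR reads (95% Wilson interval 48.4% to 53.03%) and Rxrb 45.5% (43.2% to 47.8%). In replicates 2, 3 and 4, Rxrb led with 58.6%, 54.4% and 54.5%, against 37.8%, 42.8% and 41.8% for Rxra. The ratio of Rxra to Rxrb reads was 1.11 in replicate 1 (95% exact interval 1.01 to 1.23) and 0.645, 0.787 and 0.767 in replicates 2 to 4, with intervals that all lay below 1. Replicate 1 thus differed from each of the other 3 by more than counting error. Since both genes lie so near each other in reads, no order per transcript can be given without their lengths. Rxrg never exceeded 3.78% of RXR reads.

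RXR reads exceeded PPAR reads in each animal, by factors of 1.95, 2.80, 2.60 and 2.10 in replicates 1 to 4, with Pparg left out of the sum. The factors were largest in replicates 2 and 3 and lowest in replicate 1.

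Ncor1, which encodes the corepressor, was the most abundant transcript of the set in reads. It stood at 221.7, 235.0, 238.6 and 194.6 CPM, a mean of 222.5 ± 19.9 CPM (SD, n = 4). Replicate 4 was lowest, and the highest animal exceeded it by a factor of 1.23. RefSeq lists a pseudogene of Ncor1 that could share some of these reads. Ppargc1a, the coactivator gene known for induction by cold, fasting and exercise, stood at 14.4, 10.9, 7.88 and 12.3 CPM. Replicate 1 was highest and replicate 3 lowest, a factor of 1.82 apart (95% exact interval 1.45 to 2.31). Ppargc1b stood at 5.68, 5.80, 3.58 and 3.67 CPM. It fell into a higher pair, replicates 1 and 2, and a lower pair, replicates 3 and 4.

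The ratio of corepressor to coactivator reads, Ncor1 over the sum of Ppargc1a and Ppargc1b, was 11.1 in replicate 1 (95% exact interval 9.77 to 12.6) and 14.1 in replicate 2 (12.4 to 15.96). It was 20.8 in replicate 3 (17.9 to 24.3) and 12.2 in replicate 4 (10.7 to 13.9). Replicate 3 stood above the other 3 animals, with an interval that overlapped none of theirs. That animal had the fewest reads of both coactivator genes, 121 and 55, beside an Ncor1 level of 238.6 CPM. Set against Ppargc1a alone, the mean log2 ratio was 4.31 ± 0.46 in place of 3.81 ± 0.40. The ratio concerns these 3 genes and not corepressors and coactivators at large. The 6 other corepressor genes listed below summed to 590.7, 578.4, 599.7 and 569.5 CPM in replicates 1 to 4. The 9 other coactivator genes summed to 505.4, 495.7, 529.6 and 453.0 CPM. Ppargc1a exceeded Ppargc1b in reads by factors of 2.53, 1.88, 2.20 and 3.36, and the intervals of replicates 2 and 4 did not overlap.

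**Figure D2:**
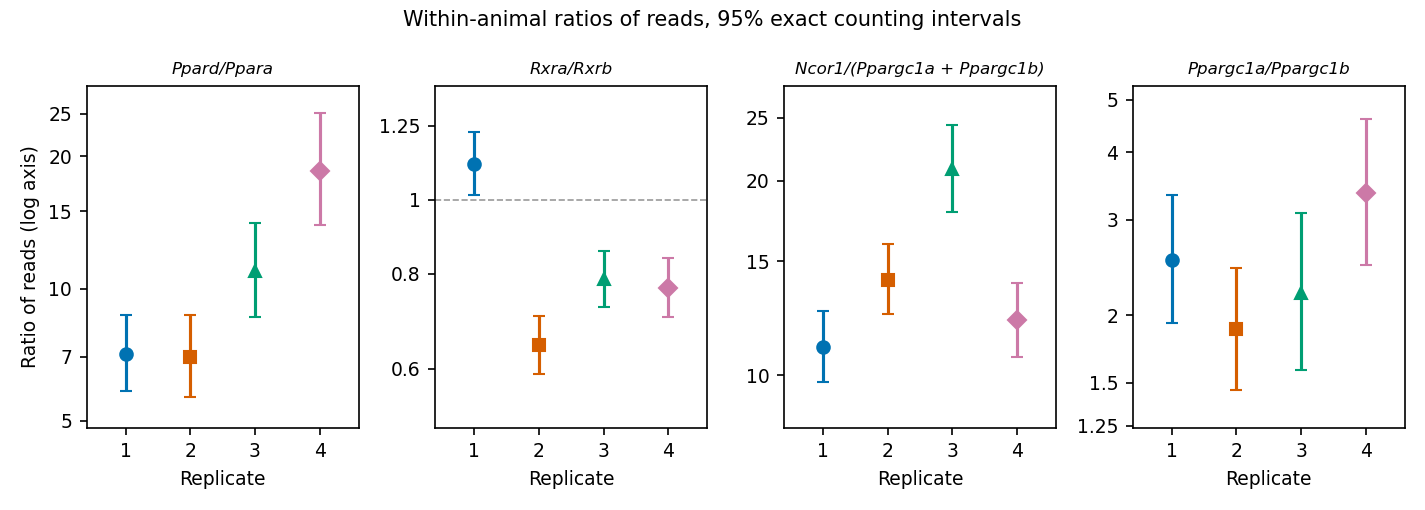
Ratios of reads within each animal (log y axes) for 4 pairs of genes or sums, with 95% exact counting intervals. Replicate 4 is highest for Ppard over Ppara at 18.5, replicate 1 alone lies above 1 (dashed) for Rxra over Rxrb at 1.11, and replicate 3 is highest for Ncor1 over the coactivators at 20.8.

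In all, 7 ratios were tested for a difference from 1 over the 4 animals by flipping their signs in every combination (exact permutation test, two-sided). Besides Rxra over Rxrb, the 6 ratios lay on the same side in 4 of 4 animals, and each gave exact p = 0.125, or 2 of 16 sign assignments, the smallest value that 4 animals allow (adjusted p = 0.146). Rxra over Rxrb was above 1 in 1 of 4 animals, with a mean log2 ratio of -0.30 ± 0.33 (SD, n = 4; exact permutation p = 0.25, adjusted p = 0.25). No ratio could have reached 0.05 in this design. These tests concern reads, and so do not compare transcripts.

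Variation between animals was set against counting error and then against genes of like level. By a chi-square test of the recovered reads over all 13261 genes, 69.5% of genes varied beyond counting error (Benjamini-Hochberg adjusted p under 0.05). Of the 8 genes of the set, 7 did, or 87.5%, a share that was not tested against that of all genes. The adjusted p was 1.73e-07 for Ppara, 9.57e-12 for Ppard, 3.64e-07 for Rxra, 7.94e-11 for Rxrb, 5.64e-17 for Ncor1, 6.43e-06 for Ppargc1a and 0.00419 for Ppargc1b. Rxrg did not pass, with an adjusted p of 0.589 and 68, 82, 63 and 77 reads. Without replicate 1, Rxrb no longer passed and 6 of the 8 remained; 7326 of all genes then passed, against 9222 with all animals.

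Once counting error was subtracted, the coefficient of variation between animals was 37.0% for Ppara, 23.1% for Ppargc1b and 22.7% for Ppargc1a. It was 14.7% for Ppard, 12.6% for Rxrb, 10.9% for Rxra and 8.79% for Ncor1, and no variance was left for Rxrg. In the excess-variance test, limma compared each gene's variance with that of genes of like level. It called 0% of the 13261 genes, and none of the 8, at an adjusted p under 0.05; at an unadjusted p under 0.05 it called 5.44% of all genes and again 0 of the 8. Ppara had an SD of 0.57 against 0.27 on limma's trend (unadjusted p = 0.101, limma adjusted p = 0.943). Ppargc1a had 0.37 against 0.21 (limma adjusted p = 0.965). Over all genes the smallest limma adjusted p was 0.834. A call of 0 genes therefore does not show that variances were alike. Rxrg and Ncor1 lay below the trend, at 0.15 against 0.28 and at 0.13 against 0.15. The median SD of the 8 genes was 0.21, against 0.18 over all genes tested.

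**Figure D3:**
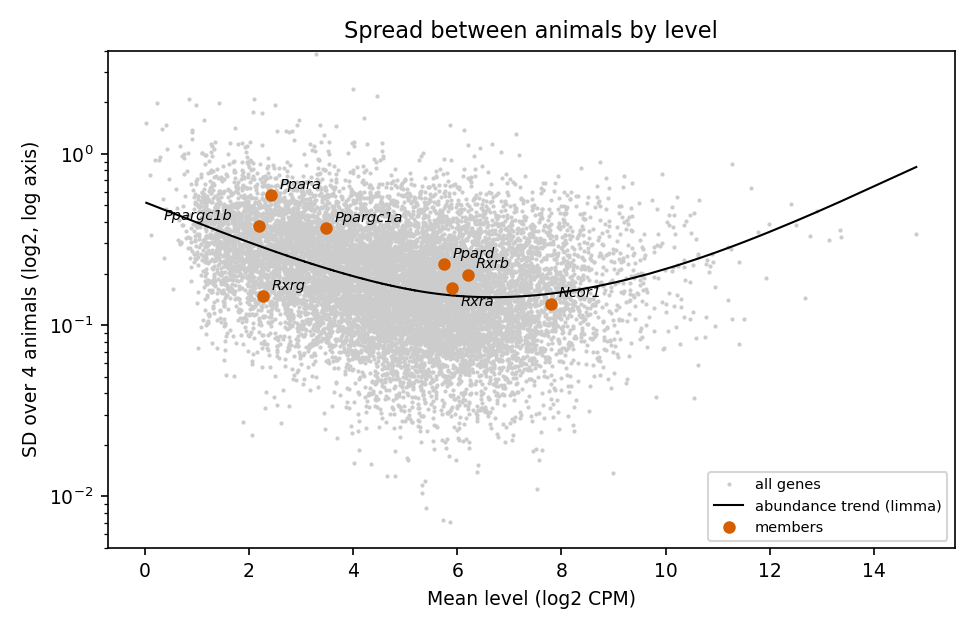
SD over the 4 animals (log y axis) against mean level in log2 CPM for all 13261 genes in grey, limma's abundance trend as a line and the 8 genes as labelled points. Ppara lies farthest above the trend, at 0.57 against 0.27, and Rxrg farthest below it, at 0.15 against 0.28.

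The genes of the set did not share a pattern over the animals. Replicate 1 was the highest animal for 3 of the 8 genes, Ppara, Rxra and Ppargc1a, against 27.7% of all genes, and replicate 2 for 3, Rxrb, Rxrg and Ppargc1b, against 21.3%. Replicate 3 was highest for Ncor1 (29.6% of all genes) and replicate 4 for Ppard (21.4%). Replicate 1 was lowest for Rxrb (35% of all genes) and replicate 2 for Ppard and Rxra (31.5%). Replicate 3 was lowest for 3 of the 8, Rxrg, Ppargc1a and Ppargc1b, against 19.6% of all genes, and replicate 4 for Ppara and Ncor1 (13.9%). The lowest animal of each of the 8 genes was unchanged under the 3 other scalings. Under at least 1 of these, the highest changed for Ppard, whose replicates 1 and 4 nearly tie, and for Ncor1, whose replicates 2 and 3 do. By the root mean square difference of their log2 values after the mean of each was subtracted, Ppard and Rxra were the most alike pair, at 0.16.

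Ppara and Ppargc1a are proximal tubule genes as well, so their values are given beside the marker lists. Relative to the mean of the 4 animals, the list of 13 proximal tubule genes stood at 0.51, 0.06, -0.59 and 0.03 (log2) in replicates 1 to 4. Its summed level ran from 4637 CPM in replicate 3 to 9698 CPM in replicate 1, and 13 of its 13 genes were lowest in replicate 3. Ppargc1a stood at 0.37, -0.03, -0.49 and 0.15 on the same scale, so its highest and lowest animals were those of the list. Ppara stood at 0.65, 0.21, -0.16 and -0.70. It shared its highest animal with the list, but was lowest in replicate 4, where the list lay at its mean. Ppargc1b stood at 0.31, 0.34, -0.35 and -0.31. The 11 podocyte genes stood at 0.50, -0.65, -0.10 and 0.25, with summed levels from 5723 CPM in replicate 2 to 10211 CPM in replicate 1. All 11 were highest in replicate 1 and lowest in replicate 2. Ppard, which had most of the PPAR reads, stood at 0.16, -0.31, -0.04 and 0.18, so it too was lowest in replicate 2 and above its mean in replicates 1 and 4. The list of 6 mesangial genes stood at 0.01, -0.29, 0.02 and 0.27. Replicate 2 was the lowest animal of that list as well, and replicate 4 its highest. Rxra stood at 0.18, -0.19, 0.09 and -0.08, with its highest and lowest animals those of the podocyte list. The part of tubule, podocyte or mesangial RNA in the levels of these 5 genes was not tested. Nor was its part in their ratios. Among these, Ncor1 over the coactivators was highest in replicate 3, where the tubule list was lowest.

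**Figure D4:**
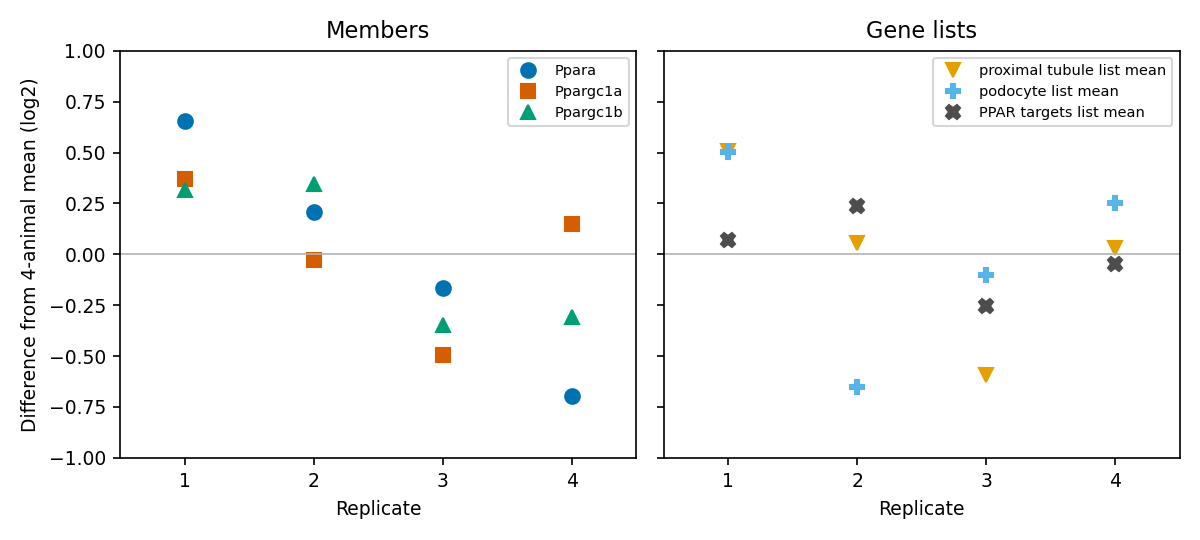
Difference of each animal from the 4-animal mean (y axis, log2) for Ppara, Ppargc1a and Ppargc1b (left) and for the means of the proximal tubule, podocyte and PPAR target lists (right). Ppargc1a and the proximal tubule list are both lowest in replicate 3, at -0.49 and -0.59, whereas Ppara is lowest in replicate 4, at -0.70.

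Cell type lists other than podocyte and proximal tubule had smaller SDs. The endothelial list, with 9 of its 10 genes, had a mean of 9.49 ± 0.16 log2 CPM (SD, n = 4), from Kdr at 10.78 to Plvap at 7.63. The mesangial list, with 6 of 6, had 7.62 ± 0.23, from Des at 9.83 to Cspg4 at 5.93. The distal nephron list, with 9 of 9, had 4.84 ± 0.05, from Umod at 8.35 to Cldn16 at 2.53. The immune list, with 9 of 9, had 5.45 ± 0.23, from Cd74 at 9.34 to Cd3e at 0.99. Of the 5 adipocyte genes, none was analysed here. Rxrb, which was low in replicate 1, stood at -0.28, 0.14, 0.13 and 0.00 (log2) relative to its mean. The immune list stood at -0.33, 0.07, 0.22 and 0.04 and the endothelial list at -0.18, 0.07, 0.18 and -0.07. Replicate 1 was the lowest animal for 7 of the 9 immune genes and 6 of the 9 endothelial genes, against 35% of all genes. With TMM or median-of-ratios factors the endothelial count was 4 of the 9, with replicate 4 lowest for another 4, and the immune count stayed at 7. The part of these cell types in the level of Rxrb, and so in the RXR order of replicate 1, was not tested.

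The genes with the most similar profiles over the 4 animals were named for the 3 most variable genes of the set, by the same measure. For Ppargc1a they were Fzd1, Trabd2b and Gpc4, at differences of 0.015, 0.020 and 0.023 (log2). Fzd1, a Wnt receptor gene, stood at 6.63, 6.24, 5.80 and 6.41 log2 CPM. For Ppargc1b they were Haao, Spatc1 and Insyn1, at 0.028, 0.034 and 0.046; Haao, an enzyme gene of tryptophan breakdown, stood at 5.70, 5.69, 4.98 and 5.09 log2 CPM. For Ppara they were Slc35f2, Naip2 and Sowahb, at 0.13 each. These likenesses rest on 4 animals. The genes were picked as the closest among all those with a mean of at least 2 CPM, so small differences are what the search selects. Counting error alone was 7.65% of the level of Ppargc1a.

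Among genes that PPARs are known to activate, 19 of the 25 listed had values, and Plin4, Cd36, Fabp1, Fabp4, Ucp3 and Adipoq were not analysed here. All 19 varied beyond counting error, against 69.5% of all genes, and limma called 0 of them at an adjusted p under 0.05. At an unadjusted p under 0.05, limma called 4 of the 19, Angptl4, Ehhadh, Cyp4a1 and Cyp4a2, against 5.44% of all genes. The median level of the 19 was 5.92 log2 CPM and their median SD 0.26, against 4.85 and 0.18 over all genes. Cyp4a2, which encodes a fatty acid hydroxylase of the tubule, stood at 9.85, 10.00, 8.86 and 8.67 log2 CPM. Like Ppargc1b, it was higher in replicates 1 and 2 than in replicates 3 and 4; near-identical Cyp4a copies may share its reads. Ucp2, a mitochondrial carrier gene, stood at 7.70, 8.15, 8.06 and 7.69 log2 CPM. Angptl4, a secreted inhibitor of lipoprotein lipase, was the most variable of the list, with an SD of 0.83 and a single high animal, replicate 2, at 4.503 log2 CPM.

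No single order of animals ran through these target genes. Replicate 2 was the highest animal for 10 of the 19, against 21.3% of all genes, and replicate 3 the lowest for 12 of the 19, against 19.6% (12 and 11 of the 19 with mitochondrial genes out of the total). Replicate 3 was also the animal with the lowest proximal tubule list, as given above. Replicate 4, which had the lowest Ppara level, was the lowest animal for 3 of the 19 targets, Ehhadh, Cyp4a2 and Ucp2, against 13.9% of all genes (4 of the 19 with mitochondrial genes out of the total). Replicate 1, with the highest Ppara level, was the highest for 6 of the 19, against 27.7% of all genes (4 of the 19 with mitochondrial genes out of the total). It was the lowest for 3 of the 19, against 35% of all genes, among them Angptl4 at 2.64 log2 CPM.

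All 13 other RXR partner genes had values, with a median level of 5.33 log2 CPM and a median SD of 0.23. Counting error was exceeded for 11 of the 13, against 69.5% of all genes, whose median SD was 0.18. Rarg, a retinoic acid receptor gene, had the most reads, at 7.08, 7.44, 7.60 and 7.30 log2 CPM. Nr1h2, which encodes the oxysterol receptor LXRβ, followed at 6.99 ± 0.09 (SD, n = 4), and its replicate 1 was the lowest. Nr1h4, the bile acid receptor FXR, was the most variable, at 5.20, 4.76, 4.31 and 4.26 log2 CPM, and was highest in replicate 1, as Ppara was. Its replicates 3 and 4 lay close together, at 303 and 292 reads. Nr4a2, an orphan receptor gene, stood at 3.01, 3.16, 3.76 and 2.95 log2 CPM.

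All 6 other corepressor genes had values, with a median level of 6.03 log2 CPM and a median SD of 0.12, against 4.85 and 0.18 over all genes. Of these, 5 of the 6 varied beyond counting error, against 69.5% of all genes. Tbl1x, a subunit gene of the NCoR1 complex, stood at 6.78 ± 0.09 (SD, n = 4). Gps2 and Hdac3, of the same complex, had the largest SDs of the 6, at 0.21 and 0.17, and both were lowest in replicate 1. Of the 9 other coactivator genes, 6 varied beyond counting error, a share near the 69.5% of all genes, and the list had a median level of 5.85 and a median SD of 0.12. Ncoa3, a p160 coactivator gene, stood at 6.88, 6.73, 6.94 and 6.46 log2 CPM. Its relative Ncoa1 was at 6.04 ± 0.07, and Crebbp, a histone acetyltransferase gene, at 5.98 ± 0.20.

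Partners of the PGC-1 coactivators were available for 6 of 8 genes, with a median level of 5.04 log2 CPM and a median SD of 0.11; Esrrb and Sirt1 were not analysed here. Counting error was exceeded for 4 of the 6, a share near the 69.5% of all genes, whose median SD was 0.18. Esrra, the oestrogen-related receptor gene through which PGC-1α acts on mitochondrial genes, stood at 6.46, 6.24, 6.30 and 6.31 log2 CPM, and Gabpa, a GA-binding transcription factor gene, at 5.57 ± 0.08 (SD, n = 4). Esrrg, a relative of Esrra, stood at 3.98, 3.67, 3.32 and 3.35 log2 CPM, highest in replicate 1. Its replicates 3 and 4 nearly tied, at 153 and 155 reads, so no lowest animal is named. Lpin1, which encodes a phosphatidate phosphatase and nuclear coactivator, stood at 3.09, 2.20, 2.78 and 2.71 log2 CPM, with replicate 2 the low animal.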

How the data were processed

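Per the submitters' processing notes, HISAT2, featureCounts, Subread and limma were used with build Rnor_6.0; versions, annotation, strand use and filters are not given in the sources used here. The deposited values are log2 CPM, with 1 column per sample matched by title; 0 columns belonged to no sample. Raised to the power of 2, each value was a whole number of reads plus 0.5 times a constant of its column (100% within 0.05 reads), so reads were recovered. In 4 of 13265 rows the cells were displaced; these were left out. Total reads were 13566962 to 16207027 per sample.

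Variation beyond counting error was tested by chi-square on recovered reads (3 degrees of freedom), and excess variance by an intercept-only limma fit (version 3.58.1) with an abundance trend; both ran over all genes with Benjamini-Hochberg adjustment at 0.05. Ratios were tested by exact sign flips (Python 3.11.15, scipy 1.17.1). On simulated counts for 13261 genes, limma called 37% of 100 genes changed 2-fold in 1 replicate and 100% of those changed 4-fold. The simulation gave every gene the same variation beyond counting error, so these rates do not carry over to the real data. There, Magi2 was 4.61-fold apart between its highest and lowest animals and was not called (limma adjusted p = 0.913). The design called for ratios per kilobase; no transcript lengths were given, so reads were used.

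The members and gene lists were chosen with earlier results of these data known. Named genes are the members, the 2 highest and 2 most variable genes of each pathway list, the highest and lowest marker of each cell type, and the 3 genes nearest in profile to Ppara, Ppargc1a and Ppargc1b; genes named beyond these were chosen after their values were seen. Some genes that this rule selects are not reported here.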

Additional observations from a re-analysis of the deposited data

Results flagged for a closer look

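Of 15 values examined (8 gene levels and 7 ratios), 1 met Dixon's criterion for an outlying animal, in which the gap to the nearest animal is divided by the whole range; chance gives about 1 in 20. It was Rxrg, whose replicate 3 lay at 2.05 log2 CPM against 2.34, 2.35 and 2.35 in replicates 1, 2 and 4, a ratio of 0.961. The 63 reads of that animal, against 68 to 82 in the others, were within counting error (chi-square adjusted p = 0.589).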

How the results depend on the processing

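Of 143 recomputed values, 140 kept their direction and stayed within the spread between animals, or within 1.5 times for numbers of genes. Leaving out 1 of 4 animals moves a mean by less than its SD, so those values could not have left that range. TMM and median-of-ratios factors were centred on 1 and shifted the median gene by 8.89e-05 (log2). Mean levels under these 2 scalings could therefore not have left it either. The 3 that moved were Rxrg, at 2.53 with log2(CPM + 1), Ncor1, at 7.94 with mitochondrial genes out of the total, a scaling that raises the median gene by 0.14 (log2), and Ncor1 over Ppargc1a alone, at 4.31; the first 2 shifts follow from how the scale is built. Without each replicate in turn, the log2 ratio of Rxra to Rxrb ran from -0.45 to -0.19 and that of Ppard to Ppara from 3.02 to 3.49. The excess-variance test by limma called 0 genes under each alternative run, and variation beyond counting error was called for 7326 to 8678 genes and for 6 to 7 of the 8 members without each replicate in turn. The ratios per kilobase were not run, for want of transcript lengths. No paired analysis was possible because there is a single group.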

Other observations

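Ppargc1a and the mitochondrial transcripts it is known to promote did not share their highest animal. Mitochondrially encoded genes took 7.63%, 12.8%, 9.65% and 7.74% of reads in replicates 1 to 4, while Ppargc1a stood at 14.4, 10.9, 7.88 and 12.3 CPM. Replicate 2 thus had the largest mitochondrial share and an intermediate Ppargc1a level. The relation between the 2 measures was not tested.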
